A study of Mus musculus with 20 samples.

Results

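The 48 interferon response genes described here are transcripts that cells make when they sense interferon, and they were followed in mouse thymocytes and T-cell tumours with and without the transcriptional repressor Gfi1. Members were taken as every gene of the list whose symbol was the only one given for a probe set in the platform annotation, and a member's value was the median of its probe sets after each was centred, put back on the log2 signal scale. Of the 48 genes, 46 were measured, among 19607 genes in all, through 448 probe sets. Ifit3, Ifi205 and Ifi47 rested on 2 probe sets each and Ddx60 on 33. Uba7 and Herc6 had no such probe set and were not analysed here.

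The study hybridised 20 exon arrays of C57BL/6 mice in 8 groups, asking what loss of Gfi1 does to thymocytes before and after irradiation and to established T-cell tumours. The thymocyte groups were Gfi1 KO irradiated (3 arrays), WT irradiated (3), Gfi1 KO untreated (2) and WT untreated (2), with no dose or time of irradiation stated. The tumour groups were Gfi1 KO (2) and WT (2) tumours of mice carrying a Notch transgene and given the mutagen ENU, and Gfi1 KO (3) and WT (3) tumours of mice given ENU without the transgene. Tumour mice of both genotypes had floxed Gfi1 (f/f), and the KO mice also carried Mx1Cre. All tumour mice received pIpC, a synthetic double-stranded RNA that induces interferon, after a tumour had been seen by ultrasound, and cells were taken some weeks later. The Mx1 promoter that drives this Cre is itself induced by interferon, so pIpC serves to switch the recombinase on. For the thymocyte groups no pIpC is stated. Nothing in the labels says that the arrays of a group came from separate mice, so p-values measure the spread between arrays, which may be technical.

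Type I interferons bind the receptor IFNAR1/IFNAR2, whose kinases JAK1 and TYK2 activate a complex containing STAT2 and IRF9 that binds the interferon-stimulated response element of target promoters. The targets include the sensors and the transcription factor IRF7 that raise further interferon, effectors that block viral RNA or protein, and brakes such as USP18. Interferon gamma acts through its own receptor and induces the immunity-related GTPases, the guanylate-binding proteins and the antigen-processing genes. In the thymus, epithelial cells release interferon without infection, and maturing single-positive thymocytes respond to it.

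The promoters of members were read because these genes moved together in several comparisons. RefSeq promoter windows (GRCm38.p6, from 250 bases before to 50 bases after the annotated start) matched 37 of the 48 members and were searched on both strands for GAAANNGAA, whose reverse complement is TTCNNTTTC, a core of the interferon-stimulated response element. The letters occurred in 20 of 37 members' windows (54.1%), in 12 of them at least 2 times, against 2638 of 27025 genes in the whole table (9.76%). Windows of 4 members with the motif and 1 without it are printed for the members that recur below, with matches in capitals. Ifit3 (chr19:34583279-34583578, plus strand) held 3 matches, Ifit1 (chr19:34640639-34640938, plus strand) 3, of which 2 overlap, Ifi205 (chr1:174031706-174032005, minus strand) 2, Bst2 (chr8:71537423-71537722, minus strand) 2 that overlap, and Oasl2 (chr5:114896684-114896983, plus strand) none.
Ifit3: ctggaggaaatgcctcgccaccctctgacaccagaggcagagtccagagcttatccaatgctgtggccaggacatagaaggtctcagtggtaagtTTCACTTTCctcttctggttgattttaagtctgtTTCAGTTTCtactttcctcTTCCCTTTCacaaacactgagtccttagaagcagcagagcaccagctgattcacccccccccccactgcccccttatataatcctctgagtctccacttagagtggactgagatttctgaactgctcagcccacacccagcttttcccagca
Ifit1: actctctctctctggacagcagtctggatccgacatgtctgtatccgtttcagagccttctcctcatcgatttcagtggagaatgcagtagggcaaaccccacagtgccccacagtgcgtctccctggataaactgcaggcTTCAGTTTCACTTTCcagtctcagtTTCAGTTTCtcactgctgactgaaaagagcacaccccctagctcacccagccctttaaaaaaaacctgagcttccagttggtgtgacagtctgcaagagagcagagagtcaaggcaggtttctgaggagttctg
Ifi205: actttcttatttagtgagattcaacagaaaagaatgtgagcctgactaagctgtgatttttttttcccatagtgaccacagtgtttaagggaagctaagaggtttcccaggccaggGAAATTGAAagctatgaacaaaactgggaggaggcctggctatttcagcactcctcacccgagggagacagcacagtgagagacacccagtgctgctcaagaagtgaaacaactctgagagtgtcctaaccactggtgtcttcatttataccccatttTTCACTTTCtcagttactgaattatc
Bst2: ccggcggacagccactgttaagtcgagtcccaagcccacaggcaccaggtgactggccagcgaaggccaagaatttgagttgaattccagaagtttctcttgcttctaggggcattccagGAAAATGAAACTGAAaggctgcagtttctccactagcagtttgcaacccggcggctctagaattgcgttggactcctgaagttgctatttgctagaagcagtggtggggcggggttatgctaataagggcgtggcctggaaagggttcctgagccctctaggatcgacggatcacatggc
Oasl2: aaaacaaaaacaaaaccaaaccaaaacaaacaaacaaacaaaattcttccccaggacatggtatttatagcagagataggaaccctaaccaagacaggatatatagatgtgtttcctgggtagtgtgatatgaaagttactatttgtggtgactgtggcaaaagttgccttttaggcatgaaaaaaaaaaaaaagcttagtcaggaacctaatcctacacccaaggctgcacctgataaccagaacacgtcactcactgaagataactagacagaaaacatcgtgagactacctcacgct
A match is a description of these letters and says nothing of binding.

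Several facts of the arrays bear on what follows. Correlations between arrays of a group ran from 0.87 to 0.988, and array medians from 9.08 to 9.27. The untreated arrays carry numbers 77 to 80, far from the irradiated (45 to 50) and tumour arrays (51 to 65), so irradiation, or tumour, and array run cannot be told apart against untreated thymocytes. Of the 8 probe sets of Gfi1, the ones lower by over 1 log2 unit in KO were nos. 4 to 8 in irradiated thymocytes but nos. 2 to 4 in untreated ones, so irradiated and untreated KO samples did not show the same Gfi1 pattern, and every comparison between them holds that difference too. In Notch tumours nos. 2 and 3 were lower in KO, and in ENU tumours none was (KO minus WT −0.65 to 0.11), for which reason those arrays are called ENU tumours labelled Gfi1 KO. A single library stood apart: the second KO Notch tumour had a B-cell marker median of 4.06, against −0.98 to 0.54 on the other 19 arrays, and a double-positive thymocyte median of −3.8, against −1.14 to 0.93.

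**Figure D1:**
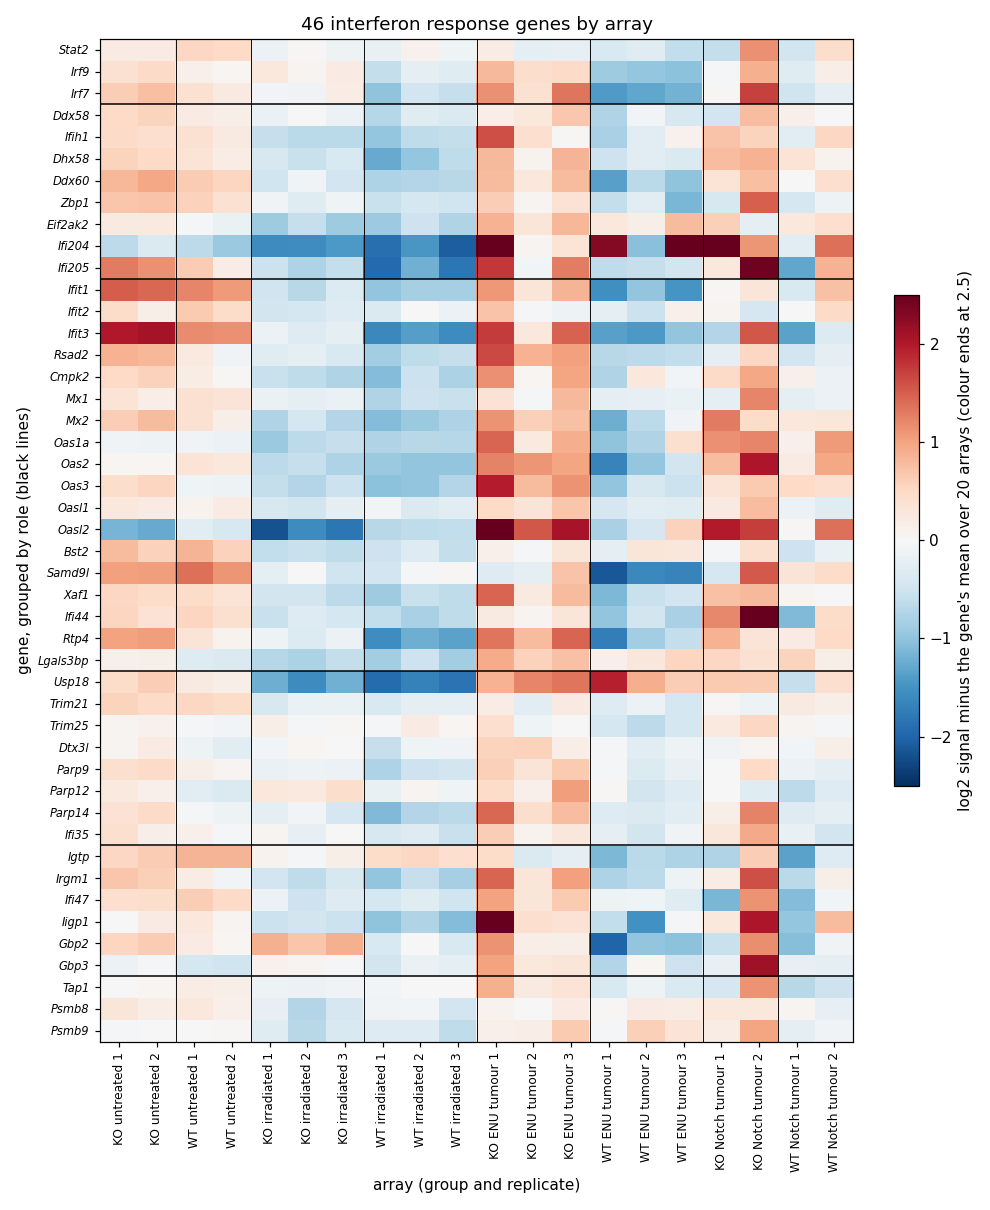
Log2 signal of 46 interferon response genes (rows, grouped by role) on the 20 arrays (columns, grouped by genotype and treatment), as the difference from each gene's mean over the 20 arrays, with colour ending at 2.5. Irradiated thymocytes and WT ENU tumours are mostly below the mean, and untreated thymocytes and ENU tumours labelled KO mostly above it.

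Over the 46 measured members, the median centred level averaged highest in ENU tumours labelled KO (0.61 ± 0.32 SD, n = 3 arrays) and lowest in WT irradiated thymocytes (−0.62 ± 0.12 SD, n = 3). It was −0.35, −0.39 and −0.38 on KO irradiated arrays, against −0.75, −0.51 and −0.60 on WT irradiated arrays, and 0.45 and 0.46 on KO untreated arrays, against 0.25 and 0.14 on WT untreated ones. In tumours it was 0.18 and 0.88 on KO Notch arrays, against −0.21 and 0.11 on WT Notch arrays, and 0.87, 0.26 and 0.70 on ENU arrays labelled KO, against −0.63, −0.45 and −0.34 on WT ENU arrays. In each of the 4 pairs every KO array was above every WT array. The pooled SD between arrays of a group was 0.22, and the KO Notch arrays were the farthest apart. Among the members, the range over 20 arrays was widest for the DNA sensor Ifi204 (5.19 log2 units), the OAS-like gene Oasl2 (4.72) and the GTPase Iigp1 (4.64), and narrowest for Trim21 (0.99) and Psmb8 (1.03).

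**Figure D2:**
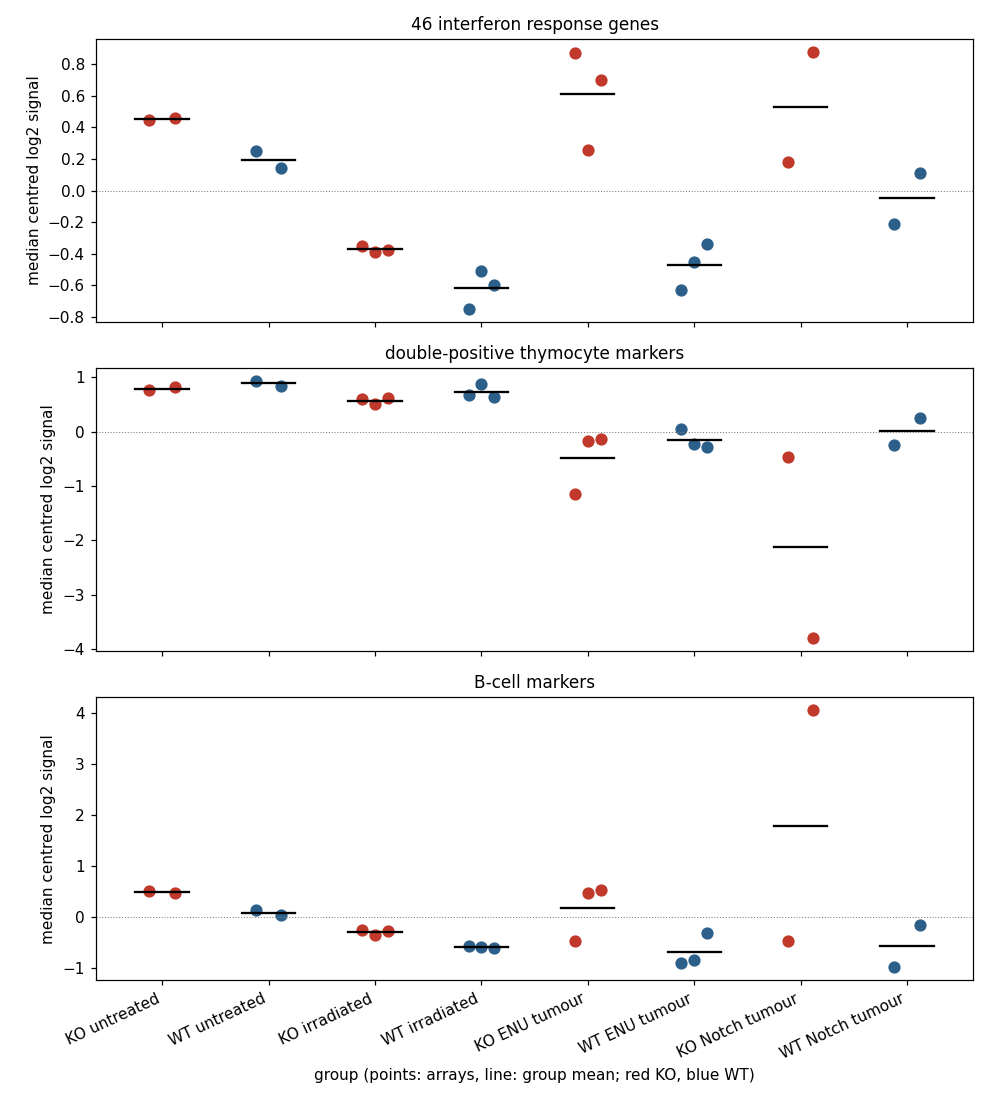
Median centred log2 signal per array (points) with the group mean (line), KO in red and WT in blue, for the 46 interferon response genes (top), double-positive thymocyte markers (middle) and B-cell markers (bottom). The second KO Notch tumour has the B-cell median of 4.06 and the double-positive median of −3.8, while the interferon genes of all KO groups lie above their WT groups.

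Irradiated thymocytes had less transcript of most interferon response genes than untreated thymocytes, in both genotypes. In WT, 36 of the 42 members tested fell and 0 rose, with a median difference of −0.76 against −0.02 for all genes tested. In KO, 35 of 42 fell and 0 rose, with a median of −0.74 against −0.02. Over all 12747 genes, 21.7% fell and 13% rose in WT, and 23.7% fell and 15.1% rose in KO. These counts come from limma with Benjamini-Hochberg adjustment over all genes tested at 0.05, in 1 fit of the 10 thymocyte arrays. Without adjustment 1 member (Parp12) was higher in WT at p under 0.05 and none in KO. Of those tested, 4 in KO (Ddx60, Ifi44, Oas1a, Oasl2) and 7 in WT (Ifit3, Ifi205, Ddx60, Ifi44, Dhx58, Rsad2, Oas1a) were above the filter's level, each array's 40th percentile, in untreated cells only. Among the members above it in both groups, 31 of 38 fell in KO and 29 of 35 in WT. Ifi204, Mx1, Mx2 and Iigp1 were too dim to be tested in thymocytes, and all samples are bulk RNA, so fewer cells of a type and less RNA per cell cannot be told apart.

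Ifit3, which with Ifit1 binds viral RNA, had 7.13, 7.37 and 7.17 in WT irradiated thymocytes, against 9.94 and 9.90 in WT untreated ones (difference −2.69 ± 0.10 SE, adjusted p = 5.65e-11). In KO it had 8.61, 8.42 and 8.51 after irradiation, against 10.75 and 10.83 untreated (−2.28 ± 0.10, adjusted p = 2.75e-10). The irradiated and untreated arrays were far apart in both genotypes, and every KO array was above every WT array of its treatment. Ifit1 had 7.83, 7.97 and 7.98 in WT irradiated thymocytes, against 10.02 and 9.87 in WT untreated ones (−2.01 ± 0.11, adjusted p = 2.4e-09). In KO it had 8.32, 8.11 and 8.46, against 10.32 and 10.25 (−1.99 ± 0.11, adjusted p = 2.42e-09). The treatments did not overlap in either genotype, and the KO and WT responses differed by 0.03 ± 0.16.

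Usp18, the protease that removes ISG15 from proteins and dampens signalling at the receptor, had 8.01, 8.24 and 8.09 in WT irradiated thymocytes, against 10.16 and 10.08 in WT untreated ones (−2.01 ± 0.12, adjusted p = 5.47e-09). In KO it had 8.72, 8.37 and 8.73, against 10.40 and 10.56 (−1.87 ± 0.12, adjusted p = 1.22e-08). Irradiated and untreated arrays did not overlap in either genotype. Rtp4, a receptor chaperone that interferon induces, had 8.22, 8.55 and 8.45 in WT irradiated thymocytes, against 10.11 and 9.86 in WT untreated ones (−1.58 ± 0.12, adjusted p = 6.28e-08), and fell by 1.24 ± 0.12 in KO (adjusted p = 7.53e-07). Oas2, one of the enzymes that make the oligoadenylate signal for RNase L, had 8.13, 8.07 and 8.08 in WT irradiated thymocytes, against 9.40 and 9.33 in WT untreated ones (−1.27 ± 0.10, adjusted p = 7.12e-08). All of these were separated by more than the spread within a group.

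In KO the next in order were Bst2 and Ddx60. Bst2, which tethers budding virus to the cell surface, had 8.63, 8.70 and 8.61 in KO irradiated thymocytes, against 10.05 and 9.83 in KO untreated ones (−1.30 ± 0.12, adjusted p = 3.76e-07). Ddx60, a helicase linked to RNA sensing, had 7.47, 7.87 and 7.48, against 8.80 and 8.94 (−1.27 ± 0.12, adjusted p = 6.8e-07). Neither gene overlapped between treatments. In WT, Bst2 fell by 1.19 ± 0.12 (adjusted p = 1.15e-06) and Ddx60 fell by 1.33 ± 0.12 (adjusted p = 4.39e-07).

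By role, all 7 nucleic acid sensors tested fell in both genotypes, including Ifi205 (−2.07 in WT, −1.85 in KO), Dhx58 or LGP2 (−1.21, −0.98), Ifih1 or MDA5 (−1.04, −1.08), Ddx58 or RIG-I (−0.63 in each) and Zbp1, the sensor of Z-form nucleic acid (−0.98, −0.87). Over all genes 21.7% fell in WT and 23.7% in KO. Ifi205, Ddx60 and Dhx58 in WT, and Ddx60 in KO, were above the filter's level in untreated cells only. Of 16 antiviral effectors, 15 fell in WT and 16 in KO: Oasl2 fell by 0.63 in KO (adjusted p = 0.00158) and was lower by 0.31 in WT (adjusted p = 0.0866). Ifit3, Ifi44, Rsad2 and Oas1a in WT, and Ifi44, Oas1a and Oasl2 in KO, were likewise above that level in untreated cells only. All 3 factors fell in WT, with Irf7 at −0.99, Stat2 at −0.58 and Irf9, the DNA-binding subunit, at −0.46. In KO, Irf7 (−0.67) and Stat2 (−0.28) fell, while Irf9 gave −0.24 (adjusted p = 0.103). Of the interferon-inducible GTPases that guard vacuoles, Irgm1 fell in WT (−0.86) and KO (−1.14), as did Igtp (−0.38 and −0.51) and Ifi47 (−0.96 and −0.77). Gbp2 fell in WT (−0.39, adjusted p = 0.0217) and gave 0.23 in KO (adjusted p = 0.139). The immunoproteasome subunits Psmb8 and Psmb9 fell in both genotypes, by 0.40 to 0.67. The genes that passed in neither genotype were Parp12, Gbp3, Trim25, Dtx3l and the peptide transporter gene Tap1, whose differences ran from −0.18 to 0.26.

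**Figure D3:**
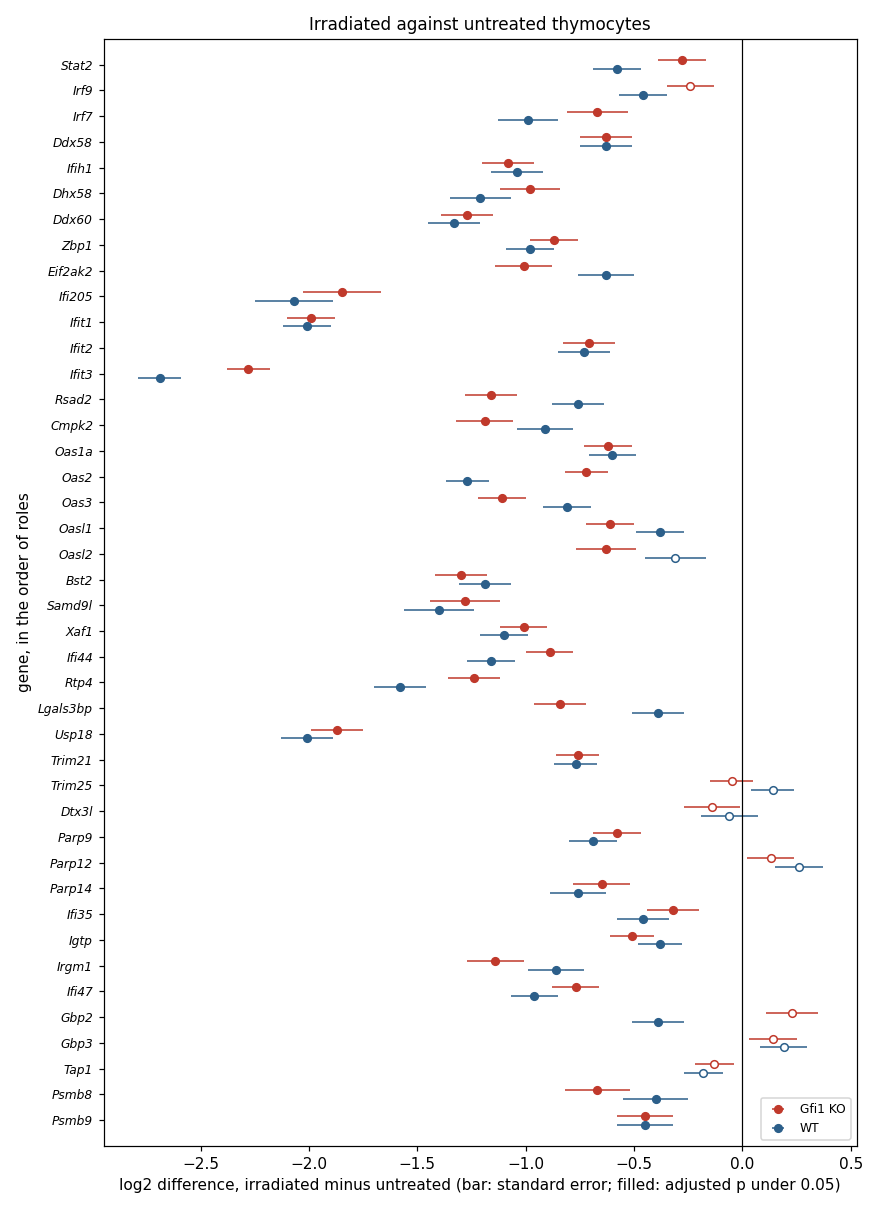
Log2 difference, irradiated minus untreated thymocytes, for the 42 interferon response genes tested, in Gfi1 KO (red) and WT (blue), with the standard error as a bar and filled points where the adjusted p is under 0.05. Ifit3, Ifit1, Usp18 and Ifi205 are the 4 genes farthest to the left in both genotypes, and no filled point lies right of 0.

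The count held between 29 and 36 in WT and between 32 and 34 in KO when any 1 array was left out. With all 20 arrays in 1 fit, where thymocytes and tumours share 1 estimate of the spread, it was 12 in WT and 18 in KO. The share of all genes called in these runs was not counted. Markers of some other cells moved with these genes: 15 of 18 macrophage and dendritic cell markers, 8 of 10 B-cell markers and 6 of 9 NK-cell markers fell in WT, and 15 of 18, 9 of 10 and 7 of 9 in KO. Over all genes 21.7% fell in WT and 23.7% in KO. The plasmacytoid dendritic median ran from −0.07 to 0.02 in WT irradiated thymocytes, against −0.05 to −0.03 untreated, and from −0.22 to −0.12 in KO, against 0.05 to 0.14. The thymic stroma median ran from −0.13 to 0.04 in WT irradiated thymocytes, against −0.19 to −0.15 untreated, and from 0.02 to 0.07 in KO, against −0.08 to −0.07. The macrophage and dendritic median ran from −0.37 to −0.13 in KO irradiated and from −0.99 to −0.86 in WT irradiated thymocytes, against 0.16 to 0.18 in KO untreated and −0.15 on both WT untreated arrays. The mature single-positive thymocyte median ran from 0.32 to 0.52 in KO irradiated thymocytes, against 0.70 to 0.73 in KO untreated ones. In WT it ran from −0.27 to −0.13 in irradiated thymocytes, against 0.17 to 0.24 in untreated ones. Of 13 granulocyte markers, 1 fell in KO and 11 in WT. The part of these cells in the fall of the interferon genes was not tested.

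Few members were called as answering irradiation differently in KO and WT thymocytes. The test of the difference between the 2 responses called 1 of 42 members (background 1.1% higher and 0.784% lower of all genes). That member was Oas2, which had 8.41, 8.49 and 8.29 in KO irradiated and 8.13, 8.07 and 8.08 in WT irradiated thymocytes, against 9.11 and 9.12 in KO untreated and 9.40 and 9.33 in WT untreated ones. Its KO arrays were lower than WT when untreated and higher when irradiated (difference of responses 0.55 ± 0.14, adjusted p = 0.0492), and the call was lost in 13 of 15 alternatives. Gbp2 (0.62 ± 0.17, adjusted p = 0.0852) and Ifit3 (0.41 ± 0.15, adjusted p = 0.202) did not pass. Among the core genes Ifit1 gave 0.03, Usp18 0.13, Zbp1 0.11, Irf9 0.22, Irf7 0.32, Stat2 0.29, Rsad2 −0.40, Oasl2 −0.32, Igtp −0.13 and Irgm1 −0.27, none of which passed.

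Gfi1 KO thymocytes carried more transcript of a subset of interferon response genes than WT thymocytes, after irradiation and before it. In irradiated thymocytes 19 of 42 members were higher in KO and 2 were lower, against 8.12% higher and 6.81% lower of all genes. The members' median difference was 0.27, against −0.03 over all genes. In untreated thymocytes 11 members were higher and 1 was lower, against 6.79% higher and 5.49% lower of all genes, with a median of 0.29 against −0.02. The irradiated and untreated comparisons use different arrays of the same thymocyte fit in limma. After irradiation Ifit3, Ifi205, Dhx58 and Rsad2 were above the filter's level in KO only and Oasl2 in WT only. Ddx60, which was called higher, Ifi44 and Oas1a were above it in neither genotype. Of the 34 members above it in both genotypes, 14 were higher in KO and 1 lower.

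Ifit3 had 8.61, 8.42 and 8.51 in KO irradiated thymocytes, against 7.13, 7.37 and 7.17 in WT irradiated ones (1.28 ± 0.09, adjusted p = 2.91e-08), and 10.75 and 10.83 in KO untreated, against 9.94 and 9.90 in WT untreated ones (0.87 ± 0.11, adjusted p = 4.72e-05). Rtp4 had 9.65, 9.44 and 9.64 in KO irradiated thymocytes, against 8.22, 8.55 and 8.45 in WT irradiated ones (1.17 ± 0.11, adjusted p = 3.98e-07), and 10.79 and 10.83 in KO untreated, against 10.11 and 9.86 in WT untreated ones (0.83 ± 0.13, adjusted p = 0.000276). For both genes the genotypes were apart on every array under both treatments. Gbp2, a guanylate-binding protein gene, had 10.68, 10.48 and 10.67 in KO irradiated thymocytes, against 9.40, 9.78 and 9.41 in WT irradiated ones (1.08 ± 0.11, adjusted p = 1.58e-06). Untreated, it had 10.32 and 10.43 in KO, against 9.99 and 9.84 in WT (0.46 ± 0.13, adjusted p = 0.0302). Ifi205, a DNA-binding protein gene of the Ifi200 family, had 8.20, 7.96 and 8.13 in KO irradiated thymocytes, against 6.78, 7.52 and 6.93 in WT irradiated ones (1.02 ± 0.16, adjusted p = 0.000164). It was also higher in KO when untreated (0.80 ± 0.19, adjusted p = 0.0094), without overlap on either occasion.

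In untreated thymocytes Rsad2, the radical enzyme viperin, had 9.38 and 9.33 in KO, against 8.74 and 8.41 in WT (0.78 ± 0.13, adjusted p = 0.000461). Oas3, a large oligoadenylate synthetase, had 9.36 and 9.46 in KO, against 8.82 and 8.80 in WT (0.60 ± 0.12, adjusted p = 0.00227). Both were clear of the WT arrays. After irradiation Rsad2 was higher in KO by 0.38 (adjusted p = 0.0192), and Oas3 by 0.30, which did not pass (adjusted p = 0.0517).

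Oasl2 went the other way. It had 7.09, 7.69 and 7.45 in KO irradiated thymocytes, against 8.56, 8.62 and 8.65 in WT irradiated ones (−1.20 ± 0.12, adjusted p = 1.6e-06). Untreated, it had 8.10 and 7.99 in KO, against 8.99 and 8.85 in WT (−0.88 ± 0.15, adjusted p = 0.000599). No KO array reached a WT array of its treatment. Of its 9 probe sets, 1 was higher in KO after irradiation (range −2.3 to 0.1) and 0 without it (−1.5 to −0.22). Its relative Oasl1 did not pass in either comparison (−0.13 after irradiation, 0.10 without it).

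By role, 2 of the 3 factors rose in KO irradiated thymocytes: Irf7 (0.70, adjusted p = 0.000674), the factor that drives interferon alpha genes, and Irf9 (0.55, adjusted p = 0.000965), while Stat2 gave −0.01. In untreated ones none of the 3 passed, with Irf7 at 0.38, Irf9 at 0.33 and Stat2 at −0.30. Over all genes 8.12% were higher in KO after irradiation and 6.79% before it. Among sensors 5 of 7 were higher in KO after irradiation (Ifi205, Dhx58 0.50, Ddx60 0.38, Ddx58 0.36, Zbp1 0.33) and 1 of 7 before it (Ifi205). Of the 5, Ifi205 and Dhx58 were above the filter's level in KO only and Ddx60 in neither genotype. Of 16 effectors, 5 were higher after irradiation (Ifit3, Rtp4, Ifit1 0.37, Rsad2, Oas2 0.30) and 5 before it (Ifit3, Rtp4, Rsad2, Oas3, and Lgals3bp, a secreted glycoprotein gene, at 0.49), with Oasl2 lower in both. After irradiation Ifit3 and Rsad2 were above the filter's level in KO only and Oasl2 in WT only. In the ISG15 and ADP-ribose group 5 of 8 were higher after irradiation (Parp14 0.59, Usp18 0.49, Parp9 0.44, Parp12 0.39, Ifi35 0.38) and 2 before it (Parp12 0.51, Parp14 0.49). The GTPases did not move as a group: Gbp2 and Gbp3 (0.33) were higher after irradiation and Igtp lower (−0.41, adjusted p = 0.00371), whereas untreated Irgm1 (0.58), Gbp2 and Gbp3 (0.37) were higher and Igtp gave −0.27 (adjusted p = 0.121). None of the 3 antigen-processing genes passed in either comparison.

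**Figure D4:**
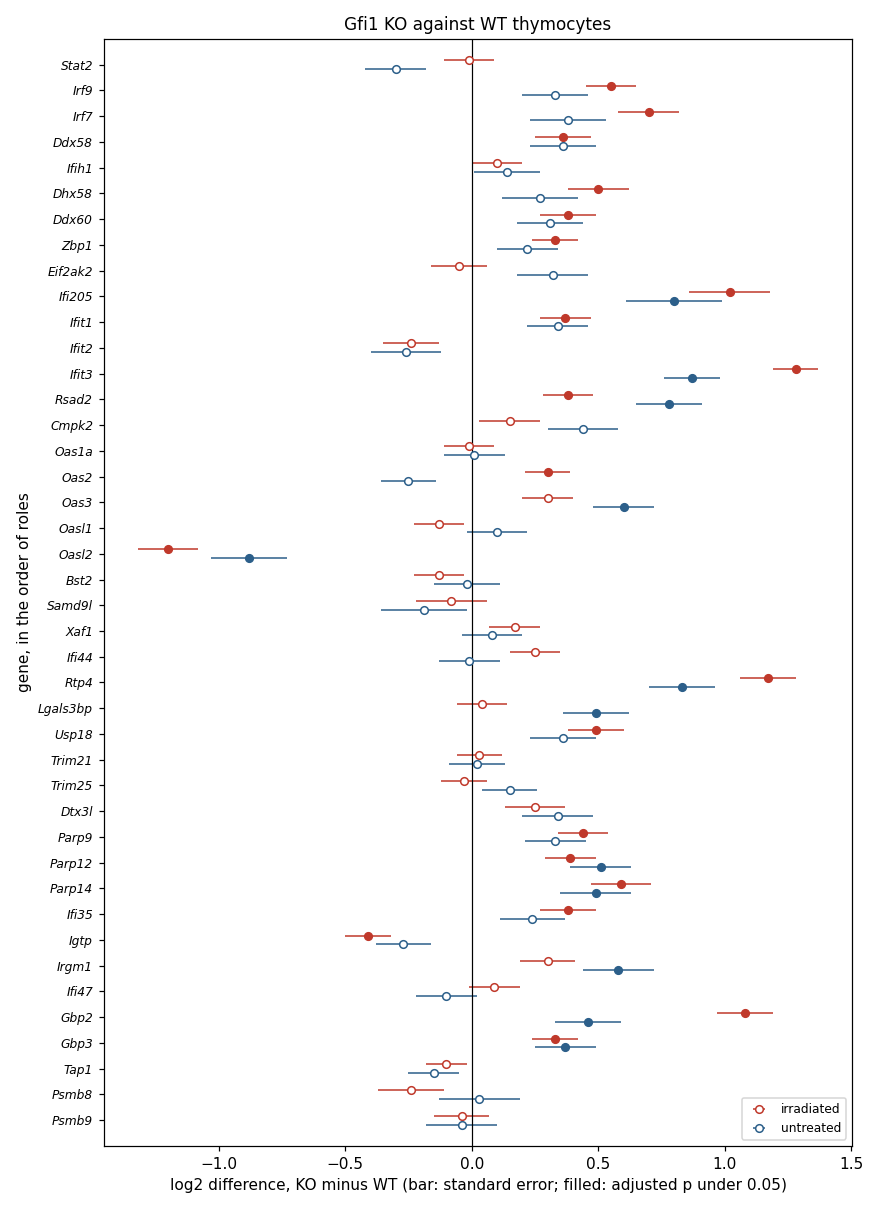
Log2 difference, Gfi1 KO minus WT thymocytes, for the 42 interferon response genes tested, in irradiated (red) and untreated (blue) cells, with the standard error as a bar and filled points where the adjusted p is under 0.05. Ifit3, Rtp4, Ifi205 and Gbp2 lie farthest to the right after irradiation, and Oasl2 alone lies below −0.5.

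The count in irradiated cells was 14 to 21 with any 1 array left out. In untreated cells, where 12 were called, it was 5 without the first KO array or the second WT array and 8 without either of the others. With all 20 arrays in 1 fit the counts were 1 (Rtp4) in irradiated and 0 in untreated cells. For these runs too the share of all genes was not counted. Markers of other cells moved with genotype too: 13 of 18 macrophage and dendritic markers, 8 of 9 NK-cell, 6 of 10 B-cell and 10 of 13 mature single-positive thymocyte markers were higher in KO irradiated cells, and 12 of 18, 5 of 9, 6 of 10 and 7 of 13 in KO untreated cells. Over all genes 8.12% were higher in KO irradiated and 6.79% in KO untreated cells. The mature single-positive list holds Slfn1, which was also listed as an interferon-stimulated gene outside the members, so these lists are not fully separate. The mature single-positive median ran from 0.32 to 0.52 in KO irradiated cells, against −0.27 to −0.13 in WT irradiated ones, and from 0.70 to 0.73 in KO untreated cells, against 0.17 to 0.24 in WT untreated ones. Granulocyte markers were lower in KO, in 8 of 13 irradiated and 12 of 13 untreated. Their part in the interferon genes was not tested.

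In ENU tumours most interferon response genes were higher on the arrays labelled Gfi1 KO than on WT arrays, but no member passed the adjusted threshold. Of 45 members tested, 42 had a positive difference and 34 had every KO array above every WT array, while 0 had every KO array below. Over all 13025 genes the shares were 10.4% above and 19% below. The median difference was 0.95, against −0.07 for all genes. In limma 0 members were called (0% of all genes higher, 0% lower), with a smallest adjusted p of 0.205, although 30 members were under an unadjusted p of 0.05, against 13.7% of all genes. With all 20 arrays in 1 fit 23 members were higher, against 1.82% of all genes. In that fit tumours and thymocytes share 1 estimate of the spread, although the tumour arrays varied more. The SD of the members' median was 0.01 to 0.12 in the thymocyte groups and 0.15 to 0.50 in the tumour groups. Those 23 calls therefore rest partly on the smaller spread of thymocytes. Of the 45, Ddx60, Ifit1, Ifit3, Samd9l, Ifi44, Mx2 and Iigp1 were above the filter's level on arrays labelled KO and on no WT ENU array. Of the other 38, 35 had a positive difference, 27 had every KO array above every WT array, 24 were under an unadjusted p of 0.05, and the median was 0.83.

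Rsad2 had 10.16, 9.37 and 9.53 in ENU tumours labelled KO, against 7.81, 7.85 and 7.90 in WT ENU tumours (1.83 ± 0.25, adjusted p = 0.205). Rtp4 had 11.11, 10.57 and 11.23, against 8.06, 8.91 and 9.18 (2.26 ± 0.31, adjusted p = 0.205). Ifit1 had 9.89, 9.12 and 9.66, against 7.28, 7.83 and 7.34 (2.07 ± 0.32, adjusted p = 0.205). The 2 genotype labels were separated by more than 1 log2 unit for each of these genes. Ddx60 had 8.75, 8.23 and 8.76, against 6.61, 7.29 and 6.97 (1.62 ± 0.24, adjusted p = 0.205), and all 33 of its probe sets were higher in the tumours labelled KO. Irf7 had 10.96, 10.20 and 11.14, against 8.40, 8.52 and 8.63 (2.25 ± 0.41, adjusted p = 0.253). Irf9 had 11.38, 11.01 and 11.04, against 9.67, 9.60 and 9.55 (1.53 ± 0.25, adjusted p = 0.209). Both factors were clear of all WT arrays by more than 1 log2 unit. Stat2 had 9.88, 9.45 and 9.49, against 9.30, 9.39 and 9.08 (0.35 ± 0.42), and its highest WT array came within 0.1 of its lowest KO array.

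Oasl2, lower in KO thymocytes, was here higher: it had 11.81, 10.82 and 11.32 in ENU tumours labelled KO, against 8.44, 8.83 and 9.83 in WT ENU tumours (2.28 ± 0.45, adjusted p = 0.284), with all 9 probe sets positive (0.85 to 2.63). Usp18 had 10.80, 11.16 and 11.27 in tumours labelled KO, against 11.89, 10.84 and 10.55 in WT (−0.02 ± 0.37), so the groups overlapped. Among the others near 0 were Bst2 (0.01), Psmb9 (0.01) and Psmb8 (−0.05), and Ifi204 gave −0.36 ± 1.14. Ifit3 gave 2.43, Oas2 2.14, Oas3 1.94, Samd9l 1.86, Gbp2 1.82, Iigp1 2.02, Irgm1 1.44, Zbp1 1.03 and Igtp 0.81, without passing. Iigp1, a GTPase against vacuolar pathogens, had 10.46 on the first array labelled KO and 7.76 and 7.70 on the others, against 6.72, 5.82 and 7.32 in WT. That first array also had a macrophage and dendritic cell median of 1.57, against −0.03 to 0.34 on the other 5 ENU arrays. Markers of other cells also moved with the label: the mature single-positive median ran from −0.19 to 0.58 on arrays labelled KO, against −1.34 to −0.69 in WT, and the NK-cell median from 0.06 to 0.12, against −0.76 to −0.51. Of 13 mature single-positive markers, 12 had a positive difference and 8 were under an unadjusted p of 0.05, and of 8 NK-cell markers 7 were positive and 3 under it. The B-cell median ran from −0.46 to 0.54, against −0.90 to −0.31, and 11 of 11 markers were positive. The part of these cells was not tested. Without any 1 of the ENU arrays the count of members called was again 0. The tumour fit also takes its spread from the Notch tumours. The second KO Notch tumour, the array with B-cell markers, was not left out in any of these runs, so they do not show the count without it.

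In Notch tumours 40 of 45 members had a positive difference between KO and WT, and limma called 0 (0% of all genes higher, 0.0154% lower). The median was 0.60, against −0.05 over all genes, and 7 members were under an unadjusted p of 0.05, against 5.99% of all genes. The lowest p was that of Ifi44 (2.24 ± 0.55, adjusted p = 0.532), followed by Ifi35 (0.95 ± 0.27, adjusted p = 0.61). Ifit3 had 8.02 and 10.31 in KO Notch tumours, against 7.41 and 8.41 in WT Notch tumours (1.25 ± 0.73). Irf7 had 9.85 and 11.52, against 9.31 and 9.58 (1.23 ± 0.50). The second KO array, the one with B-cell markers, was the higher in both genes. Oasl2 had 11.24 and 10.98, against 9.29 and 10.63 (1.15 ± 0.55), and Usp18 had 10.59 and 10.58, against 9.37 and 10.35 (0.72 ± 0.45), with both KO arrays alike and above both WT arrays. Without the second KO array the members' median was 0.25, and without the first it was 0.92. The macrophage and dendritic median was −0.01 and 1.14 on the KO Notch arrays, against −0.46 and −0.22 in WT, with 21 of 21 markers positive, and the plasmacytoid dendritic median was −0.22 and 1.05, against −0.32 and −0.21, with 8 of 9 positive. Their part was not tested. Mx2 was above the filter's level on 1 KO array and no WT Notch array. Rsad2 gave 0.50, Irf9 0.49, Stat2 0.30, Zbp1 0.83, Gbp2 0.88, Irgm1 1.16, Igtp 0.76 and Iigp1 1.23, and Ifit1 gave −0.01.

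**Figure D5:**
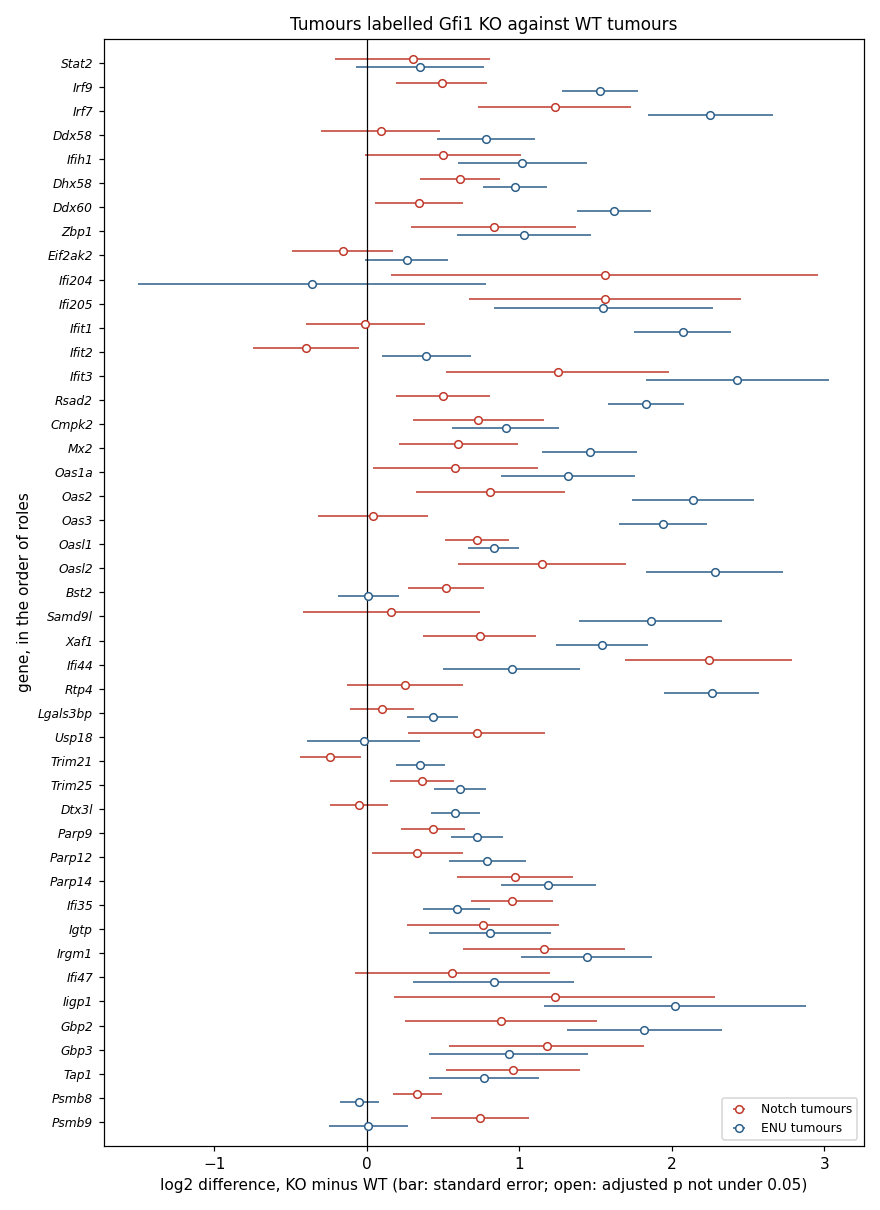
Log2 difference, KO minus WT, for the 45 interferon response genes tested in Notch tumours (red) and ENU tumours (blue), with the standard error as a bar; every point is open because no adjusted p was under 0.05. Ifit3, Oasl2, Rtp4 and Irf7 are among the genes above 2 in ENU tumours, and Usp18, Bst2, Psmb8 and Psmb9 lie near 0 there.

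The difference between arrays labelled KO and WT was set against itself in the 2 tumour types, although Gfi1 probe sets were lower in KO in Notch tumours and not in ENU tumours. In that test, Notch minus ENU, 0 of 45 members passed (0% of all genes in either direction), and 8 were under an unadjusted p of 0.05, against 7.17% of all genes. The median difference was −0.42, and it was −0.78 without the second KO Notch array and −0.08 without the first. Ifit1 (−2.08 ± 0.51, adjusted p = 0.58), Oas3 (−1.89 ± 0.47) and Rtp4 (−2.01 ± 0.50) had the smallest p-values, with Ifit1 above the filter's level on no WT ENU array. Between Notch and ENU tumours of WT mice 35 of 45 members had a positive difference, with a median of 0.41 against −0.04 for all genes, and 0 passed (0.0154% of all genes higher, 0.00768% lower). At an unadjusted p under 0.05 there were 12, against 7.42% of all genes, and 8 of the 38 members above the filter's level in both tumour types. Of those 38 members, 28 had a positive difference, and their median was 0.27. Ddx60 had 7.96 and 8.38 in WT Notch tumours, against 6.61, 7.29 and 6.97 in WT ENU tumours (1.21 ± 0.27, adjusted p = 0.361). Samd9l, a brake on translation and growth, had 9.86 and 10, against 7.42, 7.92 and 7.86 (2.20 ± 0.53, adjusted p = 0.364). Both genes were apart between the tumour types on all arrays, but neither was above the filter's level on any WT ENU array. Usp18 went the other way (−1.23 ± 0.41, adjusted p = 0.567).

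WT ENU tumours, whose mice had received pIpC some weeks earlier, had lower levels of many interferon response genes than WT untreated thymocytes. In limma over all 20 arrays 21 of 45 members were lower and 2 were higher, against 10.2% lower and 9.87% higher of 13520 genes, with a median of −0.63 against 0.01. Ifit1, Ddx60, Samd9l, Ifit3 and Ifi44 were above the filter's level in WT untreated thymocytes only and Ifi204 in WT ENU tumours only. Mx2 and Iigp1 were above it in neither group. Of the 37 members above it in both groups, 15 were lower and 2 higher. Ifit1 had 7.28, 7.83 and 7.34 in WT ENU tumours, against 10.02 and 9.87 in WT untreated thymocytes (−2.46 ± 0.28, adjusted p = 6.97e-05). Samd9l had 7.42, 7.92 and 7.86, against 10.91 and 10.64 (−3.04 ± 0.42, adjusted p = 0.000286). Ddx60 had 6.61, 7.29 and 6.97, against 8.61 and 8.51 (−1.61 ± 0.21, adjusted p = 0.000229). The tumour arrays lay below both thymocyte arrays in each case. Igtp, an immunity-related GTPase gene, had 9.19, 9.64 and 9.55, against 11.16 and 11.17 (−1.70 ± 0.34, adjusted p = 0.00345). Trim21, the antibody receptor and ubiquitin ligase, had 9.16, 9.33 and 9.04, against 10 and 9.94 (−0.80 ± 0.14, adjusted p = 0.00159).

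Of the 3 factors, Irf7 (−1.61) and Irf9 (−1.05) fell in these tumours, and Stat2 gave −0.94 (adjusted p = 0.0743). Of the other core genes, Ifit3 (−2.43), Rsad2 (−0.72), Gbp2 (−1.47) and Zbp1 (−1.16) fell, and Oasl2 gave 0.11, Irgm1 −0.57 and Iigp1 −0.89, none past the threshold. The 2 that rose were Lgals3bp (0.66, adjusted p = 0.00981) and Usp18 (0.97, adjusted p = 0.0441). The count of 23 members called was 5 without the first and 9 without the second WT untreated array, 12 without the first ENU array, and 17 or 18 without the others.

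Between WT Notch tumours and WT untreated thymocytes 3 of 45 members were lower and 1 was higher, against 5.54% lower and 2.14% higher of all genes, with a median of −0.26 against 0. Both counts were near those of all genes. Bst2 had 8.73 and 9.09 in WT Notch tumours, against 10.09 and 9.83 in WT untreated thymocytes (−1.05 ± 0.20, adjusted p = 0.00782). Igtp had 8.97 and 10, against 11.16 and 11.17 (−1.68 ± 0.37, adjusted p = 0.0157). Ifit3 had 7.41 and 8.41, against 9.94 and 9.90 (−2.01 ± 0.56, adjusted p = 0.039). The tumour arrays were lower throughout for these genes, with the Notch arrays about 1 log2 unit apart for Igtp and Ifit3. Lgals3bp had 12.55 and 12.14, against 11.67 and 11.63 (0.70 ± 0.17, adjusted p = 0.0252). Of the remaining core genes none passed: Ifit1 gave −0.96, Irf7 −0.67, Stat2 −0.53, Irf9 −0.15, Usp18 −0.26, Rsad2 −0.42, Oasl2 1.04, Zbp1 −0.77, Irgm1 −0.33, Gbp2 −0.71 and Iigp1 −0.25. The 4 calls became 0 without the first WT untreated array or the first WT Notch array, 1 without the second WT untreated array, 6 without the second WT Notch array, and 8 with the arrays of the 2 groups only. Both tumour comparisons share the WT untreated arrays. Of 13 granulocyte markers, 8 were lower in WT ENU and 9 in WT Notch tumours than in WT untreated thymocytes, and of 21 macrophage and dendritic cell markers 2 were higher in WT ENU and 2 lower in WT Notch tumours. Of 13 mature single-positive thymocyte markers 8 were lower in WT ENU and 1 in WT Notch tumours, with medians of −1.34 to −0.69 in WT ENU and −0.59 to −0.22 in WT Notch tumours, against 0.17 to 0.24 in WT untreated thymocytes. NK-cell medians were −0.76 to −0.51 in WT ENU and −0.34 to −0.09 in WT Notch tumours, against 0.23 to 0.48 in WT untreated thymocytes. B-cell medians were −0.90 to −0.31 in WT ENU and −0.98 to −0.15 in WT Notch tumours, against 0.04 to 0.14 in WT untreated thymocytes. Double-positive medians were −0.29 to 0.05 in WT ENU and −0.24 to 0.25 in WT Notch tumours, against 0.84 to 0.93 in WT untreated thymocytes. The part of these cells in the differences was not tested.

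Genes of the pathway that are no member gave a mixed picture in thymocytes. Of 11 receptor and signalling genes tested, 5 were higher in KO irradiated cells, against 8.12% of all genes, and 2 in KO untreated cells, against 6.79%. Irf1, a factor induced by interferon gamma, was higher in KO irradiated thymocytes (0.71, adjusted p = 0.000576), as were the receptor chain gene Ifnar1 (0.32, adjusted p = 0.0265) and the kinase gene Tyk2 (0.32, adjusted p = 0.0459), while Ifnar2 gave −0.10 (adjusted p = 0.615). After irradiation 2 of the 11 rose and 5 fell in KO, against 15.1% and 23.7% of all genes, and 0 rose and 3 fell in WT, against 13% and 21.7%, so the WT count was near that of all genes. Irf1 fell by 0.48 in KO (adjusted p = 0.0117) and by 0.74 in WT (adjusted p = 0.000661), and Tyk2 fell by 0.39 in KO (adjusted p = 0.0124) and by 0.65 in WT (adjusted p = 0.000384). Among sensors upstream of interferon, Tlr7, a receptor for single-stranded RNA, fell by 1.75 in KO and by 1.61 in WT, and Tmem173, which encodes STING, fell by 0.92 in KO and by 0.86 in WT. Socs1, an inhibitor of the receptor kinases, went the other way and rose by 0.50 in KO (adjusted p = 0.00682) and by 0.69 in WT (adjusted p = 0.000829). Of 14 interferon genes measured, 3 could be tested in thymocytes and none passed in these 4 comparisons, with 2 of the 3 under an unadjusted p of 0.05 after irradiation in WT (Il28b 0.46 and Il28a 0.27, adjusted p = 0.0871 and 0.0896), 1 after irradiation in KO (Il28a 0.29), 1 in KO against WT irradiated cells (Il28b −0.39) and 0 in untreated ones. Ifnb1 (6.08 to 6.53) and Ifng (6.60 to 8.0) were among those too dim to be tested.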

How the data were processed

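Measured values were the log2 signals of exon-level probe sets deposited by the authors, 182058 of them, on 20 arrays; that they are log2 values was read from their range (3.37 to 15.01), and neither labels nor file headers name the log base, background correction or normalization. RNA was amplified with a NuGEN kit and biotin-labelled, per the labels' protocols. Probe sets with a single symbol in the platform annotation (167016) were used, 3388 with several and 11654 with none were not. A gene's value was the median of its centred probe sets. Genes above an array's 40th percentile on at least 2 arrays of a fit were tested. Differences came from limma 3.58.1 (lmFit, eBayes) in R 4.3.3, with 1 mean per group, in 3 fits: 10 thymocyte arrays (12747 genes), 10 tumour arrays (13025) and all 20 (13520), with Benjamini-Hochberg adjustment over all genes tested and a threshold of 0.05. The limma steps were tested on simulated data. There were 11 comparisons, and the number of arrays limits the precision.

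Every member could be named; per-array values were given for up to 5 members with the smallest p past the threshold, 15 more were named with values, and a core (Stat2, Irf9, Irf7, Usp18, Ifit1, Ifit3, Rsad2, Oasl2, Zbp1, Igtp, Irgm1, Gbp2, Iigp1) was named throughout. In the comparisons among tumours, where no member passed, the members shown with per-array values were picked after their values were seen. The members and lists were chosen with earlier results of these data known. Replicate numbers did not pair arrays: deviations of same-numbered arrays correlated between −0.41 and 0.19. Alternatives were quantile normalization, no filter, the mean of probe sets, a replicate block, other sets of arrays in the fit and each array left out.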

Additional observations from a re-analysis of the deposited data

Results flagged for a closer look

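Oas2 was singled out because its response to irradiation differed between genotypes by a test of the difference itself: the irradiated minus untreated change was −0.72 in KO and −1.27 in WT thymocytes, a difference of 0.55 ± 0.14 (limma, adjusted p = 0.0492). The KO and WT arrays did not overlap under either treatment. The call was lost in 13 of 15 alternatives.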

How the results depend on the processing

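Of 132 calls of a member in a comparison, 34 passed in every alternative run and 0 changed direction in any. With all 20 arrays in 1 fit, the members called numbered 0 for KO against WT untreated, 1 for KO against WT irradiated, 12 for irradiated against untreated WT, 18 for irradiated against untreated KO, 0 for the difference in irradiation response, 23 for ENU tumours labelled KO against WT, 2 for KO against WT Notch tumours, 3 for the Notch minus ENU difference between labels and 7 for Notch against ENU tumours of WT. With the arrays of the compared groups only, 8 members were called for WT Notch tumours against WT untreated thymocytes. The difference in irradiation response had 0 calls without a filter. With each array left out, counts ran from 5 to 8 for KO against WT untreated, 0 to 1 for the difference in irradiation response, 0 to 8 for KO against WT Notch tumours, 5 to 18 for WT ENU tumours and 0 to 6 for WT Notch tumours against WT untreated thymocytes. The members' median then ran from 0.25 to 0.92 for KO against WT Notch tumours, −0.78 to −0.08 for the Notch minus ENU difference between labels and 0.19 to 0.54 for Notch against ENU tumours of WT. In groups of 2 arrays such a run left a single array, and the spread came from other groups only. Counts of calls from those runs therefore rest on 1 array of the group. Without the first KO Notch array, where the median was 0.92, the KO group was the array with B-cell markers alone. A replicate block gave 11 calls for KO against WT untreated, 20 for KO against WT irradiated, 34 for irradiated against untreated WT, 33 for irradiated against untreated KO, 0 for each of the difference in irradiation response and the 4 comparisons among tumours, 17 for WT ENU tumours and 3 for WT Notch tumours against WT untreated thymocytes. Among these runs the share of all genes called was counted only for ENU tumours labelled KO with all 20 arrays in 1 fit (1.82% higher). Whether the members' counts changed more than those of all genes was not tested, nor was the cause of the changes. Mx1 was too dim to be tested in any fit.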

Other observations

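Interferon-stimulated genes outside the list were counted in the same comparisons. Of 50 such genes tested in thymocytes, 1 rose and 35 fell after irradiation in KO, against 15.1% and 23.7% of all genes, and 1 rose and 36 fell in WT, against 13% and 21.7%. In KO against WT, 15 were higher and 2 lower in irradiated cells, against 8.12% and 6.81% of all genes, and 13 were higher and 2 lower in untreated cells, against 6.79% and 5.49%. In ENU tumours labelled KO, 45 of 51 had a positive difference from WT, 0 passed in limma and 18 were under an unadjusted p of 0.05, against 13.7% of all genes. In Notch tumours 39 of 51 were positive, 0 passed and 4 were under that p, against 5.99% of all genes. Against WT untreated thymocytes, 12 of 51 were lower and 1 was higher in WT ENU tumours, against 10.2% and 9.87% of all genes, and 2 were lower and 1 higher in WT Notch tumours, against 5.54% and 2.14%. Both Notch counts were near those of all genes.

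Tlr3, a receptor for double-stranded RNA, was higher in KO than in WT thymocytes, by 0.81 after irradiation (adjusted p = 8.86e-05) and by 1.22 without it (adjusted p = 1.56e-05). Tmem173 was higher in KO by 0.84 after irradiation (adjusted p = 5.22e-06) and by 0.90 without it (adjusted p = 3.61e-05). Both genes fell after irradiation, Tlr3 by 1.06 in KO and by 0.65 in WT. Socs1 was lower in WT ENU (−1.35, adjusted p = 0.000693) and WT Notch tumours (−1.55, adjusted p = 0.00188) than in WT untreated thymocytes, and so was Ifnar1 (−0.78, adjusted p = 0.00155, and −0.66, adjusted p = 0.0176).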
